A study of Homo sapiens with 38 samples.

Results

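The genes described here are interferon-stimulated genes, a list of 47 named genes that cells switch on when they sense an interferon. Of the 47, 46 had a probe set that named the gene alone, among 19775 genes with such a probe set, and 1 listed gene was not analysed here. Each gene was represented by the probe set with the highest mean log2 signal. The test covered 45 of the 46, among 17986 genes in all. BST2, the membrane protein tetherin, which holds budding viruses at the cell surface, failed the filter on low values: its signal was above the pooled median of 34.88 on 0 of 38 arrays.

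The arrays measured RNA of cultured human melanoma cells after 24 h of treatment. Parental cells were A375, an established melanoma line whose growth depends on mutant BRAF (18 arrays). The resistant cells were 16R6-4, 1 clone that was derived from A375 and resists GSK2118436 (20 arrays). Both lines received DMSO, the solvent control, or GSK2118436 (GSK436, dabrafenib, an inhibitor of mutant BRAF) at 0.1 or 1 µM, or GSK1120212 (GSK212, trametinib, an inhibitor of MEK) at 10 or 30 nM, or 10 nM GSK212 together with 0.1 µM GSK436 (the lower combination) or with 1 µM GSK436 (the higher combination). All cells grew in RPMI1640 medium with 10% serum, and the labels name no treatment with an interferon. The 14 groups of line and treatment held 2 or 3 arrays each, given below in the order of their replicate numbers. As the clone is 1 line, a difference between the lines cannot be told apart from a difference between 1 clone and its parent. Of 9 melanocyte markers, most were low. MITF, the master factor of the lineage, was at 283 or above on all 38 arrays, while MLANA, PMEL and TYRP1, which serve pigment cells, were above the pooled median on 3, 5 and 5 arrays and TYR on 10. SOX10, a factor of the melanocyte lineage, was at 427 or above on all 18 parental arrays and at most 21.0 on the 20 arrays of the clone, and MIA, a secreted melanoma protein, at 1393 or above and at most 73.2. In DMSO the clone differed from parental cells by -6.65 ± 0.58 for SOX10, -6.65 ± 0.52 for MIA and 1.73 ± 0.22 for MITF (log2). The part of these differences between the lines in the results was not tested. The labels do not say that replicates came from separate cultures, so p-values measure only the spread between these samples.

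Interferons bind receptors on the cell surface, and the receptors activate STAT proteins. Together with IRF9, STAT proteins form a complex that enters the nucleus and binds a short DNA motif, the interferon-stimulated response element (ISRE), in the promoters of its target genes. STAT dimers bind a different motif, the gamma-activated site (GAS). The target genes restrict viruses at many steps: they sense foreign RNA, block its translation, degrade it, alter membranes, or attach the ubiquitin-like protein ISG15 to other proteins.

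Promoter sequences were read from RefSeq (GRCh38.p14) for 37 of the 46 genes, as 300-base windows from 250 bases before to 50 bases after the transcription start. The ISRE core was searched as GAAA, any 2 bases and GAAA, and the GAS core as TTC, any 3 bases and GAA. Each was searched on both strands and on its own, so that matches may overlap. The ISRE core was found in 27 of the 37 windows (73.0%), and in 4.38% of the 27305 genes with a window. The GAS core was found in 13 of the 37 windows (35.1%), against 9.38% of all genes. The following 100-base stretches, 5′ to 3′ along the gene's strand, show what the list shares. Capitals mark matches of the ISRE core, or of the GAS core in the second set. In IFITM1 a GAS match (TTCTGAGAA, bases -12 to -4 from the start) overlaps an ISRE core and was not marked on its own. The first set holds ISRE cores of genes that were called in the comparisons of drug and DMSO, namely ISG15 (chr1:1013342-1013441, + strand), GBP1 (chr1:89065281-89065380, - strand), IFITM1 (chr11:313944-314043, + strand), HERC5 (chr4:88456974-88457073, + strand), SAMD9 (chr7:93118061-93118160, - strand) and PLSCR1 (chr3:146544632-146544731, - strand).
ISG15: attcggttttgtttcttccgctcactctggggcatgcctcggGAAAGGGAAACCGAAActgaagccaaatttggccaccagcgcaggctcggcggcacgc
GBP1: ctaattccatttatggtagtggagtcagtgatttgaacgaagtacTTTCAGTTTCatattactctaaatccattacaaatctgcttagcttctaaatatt
IFITM1: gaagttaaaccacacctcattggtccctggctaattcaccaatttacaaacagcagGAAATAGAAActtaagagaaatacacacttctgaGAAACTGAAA
HERC5: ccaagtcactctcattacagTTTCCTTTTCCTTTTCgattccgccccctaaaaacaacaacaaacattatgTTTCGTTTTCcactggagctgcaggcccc
SAMD9: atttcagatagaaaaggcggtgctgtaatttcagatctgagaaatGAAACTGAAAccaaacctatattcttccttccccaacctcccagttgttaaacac
PLSCR1: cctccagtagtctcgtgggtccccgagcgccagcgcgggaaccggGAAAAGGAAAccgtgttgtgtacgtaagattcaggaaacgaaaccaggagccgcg

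The second set comes from windows with a GAS core and no ISRE core. IRF9 (chr14:24161156-24161255, + strand) and IFI35 (chr17:43006684-43006783, + strand) were called in most comparisons, OAS1 (chr12:112906748-112906847, + strand) mainly in the resistant clone, and IRF1 (chr5:132490844-132490943, - strand) in none.
IRF9: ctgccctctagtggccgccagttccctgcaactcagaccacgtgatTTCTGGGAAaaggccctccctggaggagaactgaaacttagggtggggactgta
IFI35: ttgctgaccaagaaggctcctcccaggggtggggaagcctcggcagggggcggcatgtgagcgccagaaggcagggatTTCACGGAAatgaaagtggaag
OAS1: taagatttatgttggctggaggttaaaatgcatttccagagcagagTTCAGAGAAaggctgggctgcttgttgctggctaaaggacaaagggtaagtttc
IRF1: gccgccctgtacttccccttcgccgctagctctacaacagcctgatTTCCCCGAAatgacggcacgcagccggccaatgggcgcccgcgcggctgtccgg

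The third set has ISRE cores of 3 genes that were called in no comparison of drug and DMSO on the scale as deposited. These are IFIT5 (chr10:89414474-89414573, + strand), OAS3 (chr12:112938286-112938385, + strand) and DTX3L (chr3:122564242-122564341, + strand), and the PARP9 window on the opposite strand overlaps that of DTX3L.
IFIT5: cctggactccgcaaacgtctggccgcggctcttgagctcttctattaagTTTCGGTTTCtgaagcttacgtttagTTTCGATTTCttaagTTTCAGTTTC
OAS3: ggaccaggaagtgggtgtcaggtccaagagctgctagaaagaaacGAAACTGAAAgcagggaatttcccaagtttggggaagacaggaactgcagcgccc
DTX3L: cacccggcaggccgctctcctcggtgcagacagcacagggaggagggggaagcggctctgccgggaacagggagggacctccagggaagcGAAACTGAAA

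The share of windows with an ISRE core was equal in genes called in several parental comparisons and in genes called in none. It was found in 11 of the 15 windows (73.3%) of genes called in 3 or more of the 6 parental comparisons with DMSO. Of genes called in none of these comparisons, 11 of 15 windows (73.3%) also held it. The GAS core was in 5 of 15 and 4 of 15 windows of the same classes. HERC6, SAMD9L, RIGI, CMPK2 and XAF1 had neither core in the window searched.

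Signals were linear MAS5 intensities, and fold changes are differences of log2(signal + 2.8) between group means, with their standard errors. A gene was called when limma's moderated test gave an adjusted p under 0.05 over all genes tested and the log2 fold change was at least 1 in size. The arrays differed in quality along with the treatments. The actin 3'/5' signal ratio, which rises with degraded RNA, ranged from 3.72 to 45.0 and exceeded 20 on 15 arrays. Its group mean was 7.76 in parental DMSO against 10.7 to 37.3 under drug, and 5.47 in resistant DMSO against 8.16 to 22.7 under drug. The median signal of an array ranged from 21.6 to 52.4, and within each line its group mean was lowest in DMSO. The median log2 fold change of all genes against DMSO was 0.17 to 0.39 in parental cells and 0.05 to 0.22 in the clone. Counts are also given after each array was centred on its own median. Separation of drug and DMSO arrays was common over all genes. Every array of a parental drug group lay above DMSO for 19.2% to 36.5% of genes, and below it for 12% to 19.9%. In the clone with GSK212 these shares were 23.1% to 29.3% and 11.2% to 14.9%. With GSK436 alone in the clone they were 11.1% and 13% above, and 4.1% and 7.71% below. Of the 45 listed genes tested, 26 to 33 lay wholly above DMSO in parental drug groups and 24 to 28 in the clone with GSK212. The part of RNA quality in the results was not tested apart from a fit with the actin ratio as a covariate. As a check of the treatments, of 10 genes that report ERK output, 9 or 10 were called lower in each parental drug group. In the clone, 0 of 10 were called with GSK436 alone, and 8 or 9 were called lower in the groups with GSK212.

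In parental cells, 14 to 18 of the 45 members were called higher under each drug treatment. The counts include TNFSF10 in 4 groups and IFI27 in 2, and both passed the filter on low values only through groups in which they were called. Members called higher in all 6 drug groups numbered 7 of 45, namely IRF9, GBP1, IFI35, ISG15, MX1, IFITM1 and HERC6 (15.6%, against 3.2% of all genes). With 0.1 µM GSK436, 15 members were called higher and 1 lower (all genes tested, 11.5% higher and 6.42% lower). With 1 µM GSK436, 14 were called higher and 1 lower (all genes, 11.8% and 7.71%). With 10 nM GSK212, 18 were called higher and 0 lower (7.71% and 4.05%), while 1 member was lower at an unadjusted p under 0.05. With 30 nM GSK212, 14 were called higher and 0 lower (6.51% and 3.44% of all genes). The lower combination gave 14 called higher and 0 lower (7% and 3.64% of all genes). The higher combination gave 16 higher and 1 lower (11.2% and 5.76%). The median log2 fold change of the 45 members was 0.76 to 1.16 over the 6 groups. Each array held RNA of a whole culture, so more RNA per cell and more cells that carry the RNA cannot be told apart.

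Centring each array on its median removed many of these calls. In these 6 groups it lowered the median log2 fold change of the members to 0.04 to 0.87 and that of all genes tested to -0.43 to -0.12. With 0.1 µM GSK436 it left 3 called higher (IRF9, IFI35 and IFITM1), beside 4 called lower (all genes, 2.65% higher and 22.1% lower). With 1 µM GSK436 it left IRF9, IFI35, IFITM1 and MX1 higher, with 4 members lower (all genes, 3.02% higher and 20% lower). The 4 that were lower under centring in these groups were IFI44, IFIT5, OAS3 and PLSCR1. With 10 nM GSK212, 9 members were still called higher and 0 lower (all genes, 4.68% and 6.94%): GBP1, HERC6, IFI35, IFITM1, IRF9, ISG15, MX1, SAMD9 and SAMD9L. With 30 nM GSK212 and with the lower combination 5 were higher and 0 lower (all genes, 2.97% and 3.1% higher, 7.99% and 9.41% lower). With the higher combination 3 were higher (IRF9, MX1 and TNFSF10) and 5 lower (all genes, 3.22% and 18.9%). TNFSF10 passed the filter on low values only through groups in which it was called. Without replicate 2 of the parental DMSO or of the 0.1 µM GSK436 group, the count for that dose was 10 or 8 in place of 16. Without replicate 3 of its own drug group, the count was 9 in place of 15 for 1 µM GSK436 and 7 in place of 14 for 30 nM GSK212.

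**Figure D1:**
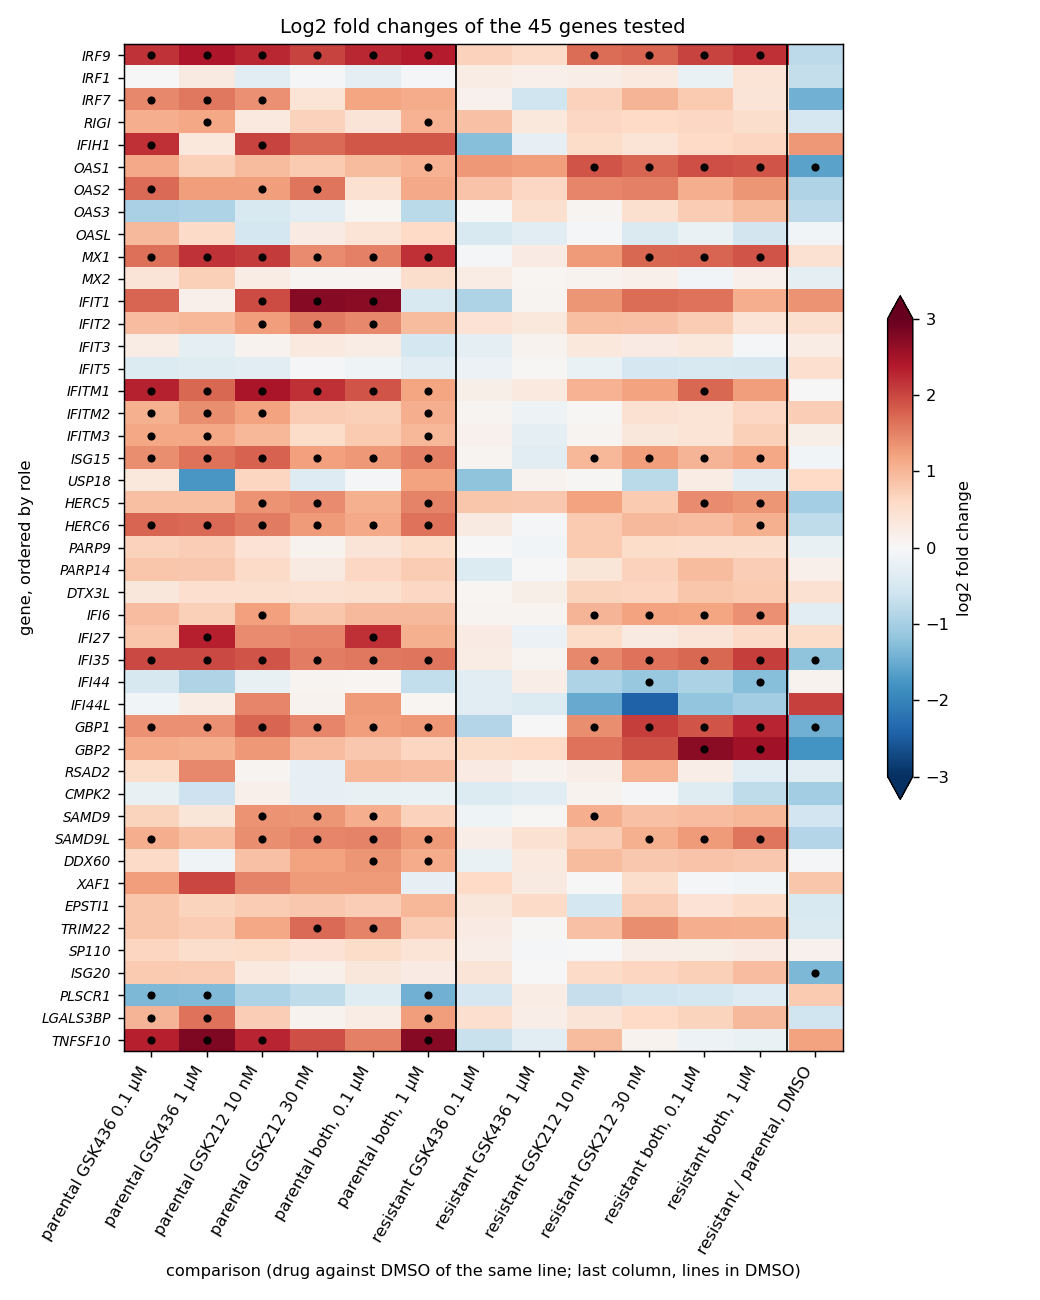
Log2 fold changes of the 45 genes tested (rows, ordered by role) in 12 comparisons of a drug with DMSO of the same line and in the comparison of the lines in DMSO (columns). A dot marks a called change; 14 to 18 of the 45 rows have a dot in each parental column and 7 to 12 in each resistant column with GSK212, and the columns for GSK436 alone in the resistant clone have 0.

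In the resistant clone, 7 to 11 of the 45 members were called higher in the groups with GSK212, alone or with GSK436, and 0 in those with GSK436 alone. With GSK436 alone, 0 members were called by limma at 0.1 µM (all genes, 0.00556% called higher and 0% lower) and 0 at 1 µM (0.0723% higher and 0.00556% lower). At an unadjusted p under 0.05 there were 3 higher and 1 lower at 0.1 µM, and 1 higher and 0 lower at 1 µM. With 10 nM GSK212, 7 members were called higher and 0 lower (all genes, 2.17% and 0.617%). With 30 nM GSK212, 8 were higher and 1 lower (3.38% and 0.945%). The lower combination gave 11 higher and 0 lower (3.85% and 1.03% of all genes), and the higher combination 11 higher and 1 lower (4.88% and 1.71%). IRF9, GBP1, IFI35, ISG15, OAS1 and IFI6 were called higher in all 4 groups with GSK212 (13.3% of members, against 1.62% of all genes). Centring left 1, 3, 6 and 6 members higher in these 4 groups, in the same order (all genes, 0.651%, 1.17%, 1.39% and 1.9%). IRF9 was left in all 4, GBP1 and IFI35 in all but 10 nM GSK212, and ISG15, OAS1 and IFI6 in none. Centring gave 0, 2, 0 and 1 lower (all genes, 1.81%, 3.73%, 3.24% and 5.48%), the 2 being IFI44 and IFI44L. IFI44L passed the filter on low values only through clone arrays with DMSO or GSK436 alone, so its call supports nothing on its own. Without replicate 2 of the resistant DMSO group, the 4 counts of calls were 4, 4, 5 and 6 in place of 7, 9, 11 and 12. Without replicate 1 of the 10 nM GSK212 group its count was 4.

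**Figure D2:**
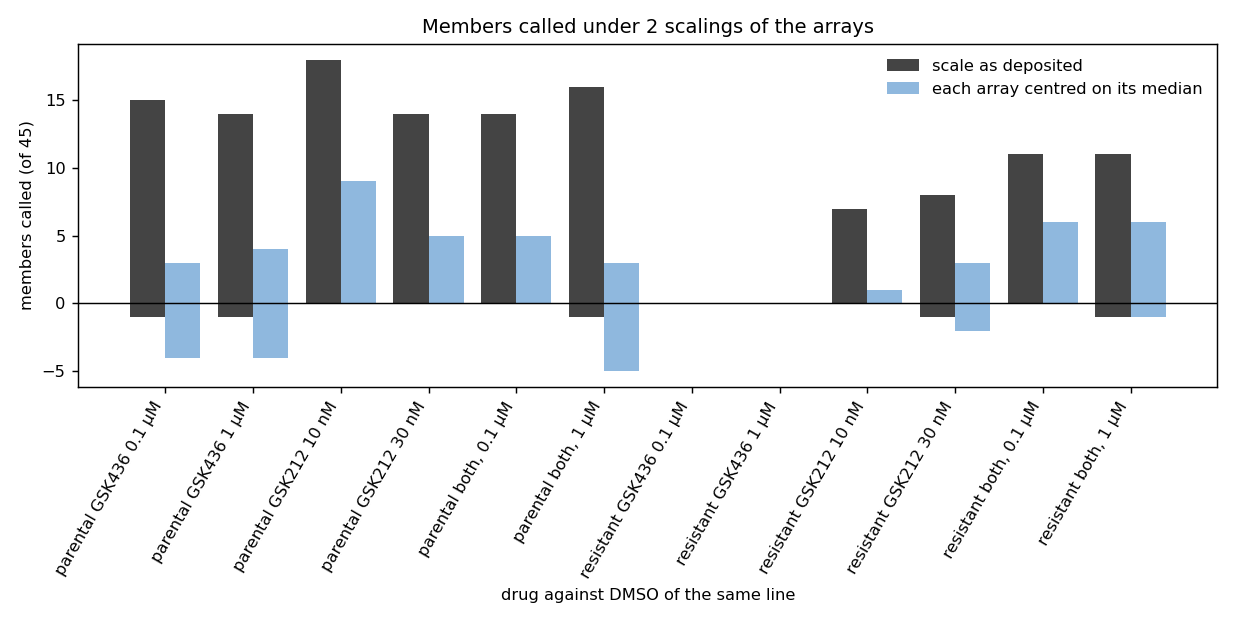
Number of the 45 members called higher (above 0) or lower (below 0) than DMSO in each drug group, on the scale as deposited (dark bars) and with each array centred on its median (light bars). The total of calls is smaller under centring in every drug group with a call, although the calls of lower members grow in 4 of them (from 1 to 4, 4 and 5 in the parental groups with 0.1 µM GSK436, 1 µM GSK436 and the higher combination, and from 1 to 2 in the clone with 30 nM GSK212). The clone has 0 calls with GSK436 alone on both scales.

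Of the 3 transcription factors tested, IRF9 was called in 10 drug groups, IRF7 in 3 and IRF1 in 0. IRF9, the DNA-binding partner of the STAT proteins, had parental signals of 69.0, 46.1 and 73.5 with DMSO, 277 and 298 with 0.1 µM GSK436, 313 and 378 with 1 µM GSK436, 323, 266 and 332 with 10 nM GSK212, and 235 and 289.8 with 30 nM GSK212. The combinations gave 354, 297 and 279 with the lower combination, and 363, 309 and 305 with the higher combination. All 15 parental drug arrays, from 235 upward, were above all 3 DMSO arrays, which ended at 73.5. The log2 fold change was 2.43 ± 0.29, adjusted p = 1.46e-07 with 1 µM GSK436 and 2.26 ± 0.26, adjusted p = 3.91e-08 with 10 nM GSK212. In the clone its signals were 41.6 and 28.4 with DMSO, 52.1, 43.4 and 81.8 with 0.1 µM GSK436, and 81.8, 44.6 and 38.9 with 1 µM GSK436. The 3 arrays with 0.1 µM GSK436 lay above both DMSO arrays and those with 1 µM did not all do so, and the changes of 0.68 ± 0.29 and 0.57 ± 0.29 were not called. With GSK212 the clone gave 120.0, 104 and 128 with 10 nM GSK212, 136, 127 and 106 with 30 nM GSK212, 142, 178 and 128 with the lower combination, and 189, 119 and 208 with the higher combination. All 12 of these arrays were above both DMSO arrays, with log2 fold changes from 1.69 ± 0.29, adjusted p = 0.000255 with 10 nM GSK212 to 2.19 ± 0.29, adjusted p = 1.4e-06 with the higher combination. IRF9 kept all 10 of its calls against DMSO under every alternative processing and every left-out array that was run.

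IRF7, a factor that amplifies interferon production, was measured at 53.5, 63.0 and 78.0 with DMSO, 242 and 133 with 0.1 µM GSK436, 205 and 189 with 1 µM GSK436, 267, 198 and 90.7 with 10 nM GSK212, and 70.9 and 105 with 30 nM GSK212. The combinations gave 180.3, 141 and 133 with the lower combination, and 95.7, 136 and 223 with the higher combination. It was called higher in parental cells with 0.1 µM GSK436 (1.45 ± 0.53, adjusted p = 0.0405), 1 µM GSK436 (1.58 ± 0.53, adjusted p = 0.0234) and 10 nM GSK212 (1.36 ± 0.47, adjusted p = 0.0365). The 30 nM GSK212 arrays overlapped DMSO. In the clone IRF7 was dim, with signals of 24.0 and 19.9 with DMSO, 23.3, 13.7 and 42.6 with 0.1 µM GSK436, 9.56, 7.84 and 30.6 with 1 µM GSK436, 22.7, 48.1 and 46.4 with 10 nM GSK212, 57.5, 48.3 and 38.3 with 30 nM GSK212, 30.9, 33.9 and 60.6 with the lower combination, and 35.2, 12.8 and 53.4 with the higher combination. Its log2 fold changes there ran from -0.59 to 1.03, and 0 were called. IRF1, a factor induced mainly by interferon gamma, had parental signals of 126, 127 and 106 with DMSO, 166 and 84.5 with 0.1 µM GSK436, 152 and 137 with 1 µM GSK436, 101, 118 and 73.5 with 10 nM GSK212, 108 and 121 with 30 nM GSK212, 151, 85.2 and 74.9 with the lower combination, and 111, 120.3 and 119 with the higher combination. Its clone signals were 89.8 and 57.9 with DMSO, 92.5, 69.7 and 93.0 with 0.1 µM GSK436, 95.2, 89.2 and 62.7 with 1 µM GSK436, 91.1, 74.2 and 83.3 with 10 nM GSK212, 107, 99.1 and 67.9 with 30 nM GSK212, 62.0, 72.9 and 54.8 with the lower combination, and 98.7, 86.5 and 106 with the higher combination. Drug and DMSO arrays overlapped in most groups of both lines, and the log2 fold changes of IRF1 were -0.31 to 0.27 in parental cells and -0.19 to 0.41 in the clone, with 0 called.

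**Figure D3:**
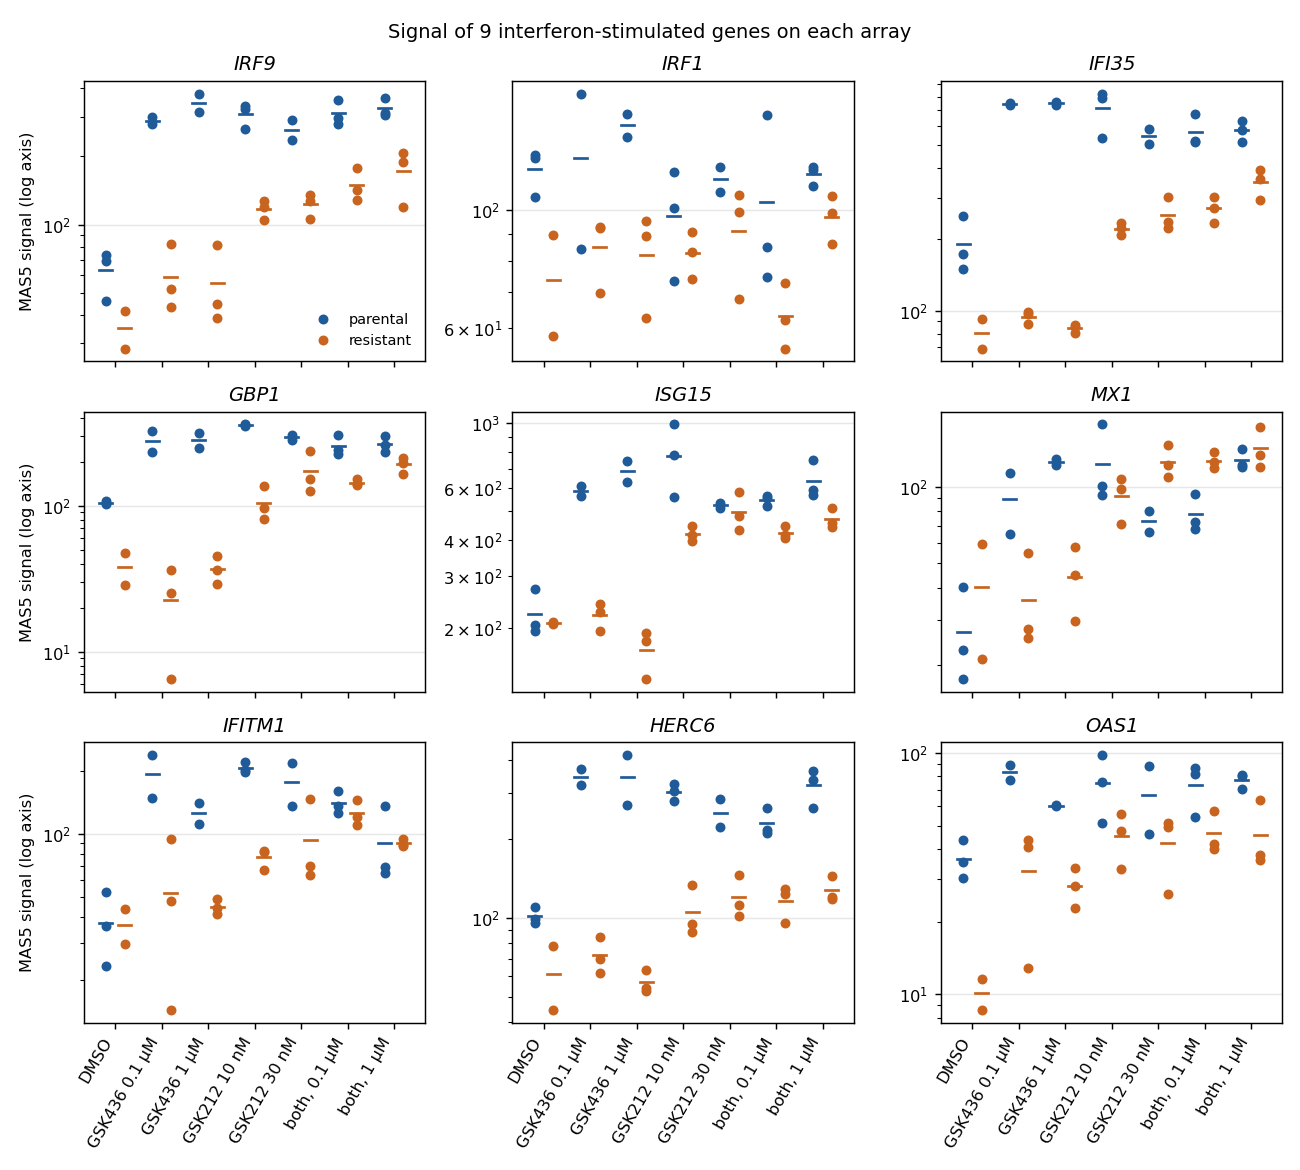
MAS5 signal (log axis) of 9 genes on each of the 38 arrays, by line and treatment; each point is 1 array and each bar is the group mean. IRF9, IFI35, GBP1 and ISG15 were above DMSO in all 6 parental drug groups and in the 4 resistant groups with GSK212, while IRF1 overlapped DMSO in most groups.

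ISG15, which is attached to proteins as a ubiquitin-like tag, was called higher in the same 10 groups as IRF9. Under centring, of these calls ISG15 kept only that of parental cells with 10 nM GSK212. Its parental signals were 195, 204 and 271 with DMSO, 610.3 and 565 with 0.1 µM GSK436, 631 and 744 with 1 µM GSK436, and 991, 778 and 558 with 10 nM GSK212. The other parental groups gave 514 and 535 with 30 nM GSK212, 563, 522 and 554 with the lower combination, and 567, 751 and 591 with the higher combination. DMSO arrays ended at 271, and the lowest drug array was at 514. The log2 fold change was 1.76 ± 0.18, adjusted p = 1.89e-09 with 10 nM GSK212, and the smallest, 1.24 ± 0.20, was with 30 nM. The clone gave 206 and 208 with DMSO, 227, 194 and 241 with 0.1 µM GSK436, and 179, 192 and 133 with 1 µM GSK436. Arrays with 0.1 µM GSK436 overlapped DMSO and those with 1 µM lay below it, with 0 called. With GSK212 the clone gave 447, 415 and 395 with 10 nM GSK212, 582, 431 and 482 with 30 nM GSK212, 404, 447 and 415 with the lower combination, and 454, 442 and 512 with the higher combination. All 12 lay above its DMSO arrays, with log2 fold changes from 1.00 to 1.24 and adjusted p from 4.06e-05 to 0.00116.

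HERC5, the ligase that attaches ISG15, and HERC6, its close relative, lie next to each other on chromosome 4. HERC6 gave parental signals of 99.3, 95.7 and 111 with DMSO, 370.2 and 323 with 0.1 µM GSK436, 269.9 and 418 with 1 µM GSK436, and 325, 306 and 279.5 with 10 nM GSK212. Its other parental groups gave 222 and 283 with 30 nM GSK212, 210.2, 217 and 262 with the lower combination, and 365, 262 and 335 with the higher combination. All 15 drug arrays lay above DMSO, with log2 fold changes of 1.15 to 1.74 and adjusted p from 1.55e-06 to 0.000386. A dimmer HERC6 probe set gave -0.565 and -0.65 with 0.1 and 1 µM GSK436. In the clone it gave 78.1 and 44.5 with DMSO, 61.9, 84.8 and 70.0 with 0.1 µM GSK436, 54.0, 52.7 and 63.5 with 1 µM GSK436, 94.5, 88.3 and 134 with 10 nM GSK212, 146, 102 and 113 with 30 nM GSK212, 129, 95.9 and 123 with the lower combination, and 118, 120.4 and 144 with the higher combination. Only the higher combination was called (1.07 ± 0.26, adjusted p = 0.00399), although its 3 arrays and those of the other groups with GSK212 were above both DMSO arrays. Of its calls against DMSO, HERC6 kept only that of parental cells with 10 nM GSK212 under centring. HERC5 was dimmer, with parental signals of 30.3, 32.0 and 31.7 with DMSO, 52.4 and 70.4 with 0.1 µM GSK436, 59.8 and 62.8 with 1 µM GSK436, 75.1, 94.0 and 86.0 with 10 nM GSK212, 75.1 and 103 with 30 nM GSK212, 115, 59.2 and 46.2 with the lower combination, and 141, 70.3 and 79.2 with the higher combination. It was called with 10 nM GSK212 (1.36 ± 0.39, adjusted p = 0.00925), 30 nM GSK212 and the higher combination. In the clone HERC5 gave 17.2 and 11.4 with DMSO, 28.7, 24.6 and 27.9 with 0.1 µM GSK436, 46.3, 28.8 and 13.8 with 1 µM GSK436, 39.8, 38.1 and 31.3 with 10 nM GSK212, 16.4, 33.1 and 33.6 with 30 nM GSK212, 34.9, 45.5 and 47.5 with the lower combination, and 33.0, 45.2 and 41.6 with the higher combination. There it was called with the lower (1.42 ± 0.43, adjusted p = 0.0346) and higher (1.33 ± 0.43, adjusted p = 0.0405) combination, and most arrays were near or under the pooled median. USP18, the protease that removes ISG15, was called in 0 of the 12 comparisons.

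Among the IFI proteins, IFI35, a protein that takes part in interferon signalling, was called in the same 10 groups as IRF9. Its parental signals were 150.0, 173 and 252 with DMSO, 738 and 748 with 0.1 µM GSK436, 759 and 737 with 1 µM GSK436, 822, 789 and 534 with 10 nM GSK212, 507 and 583 with 30 nM GSK212, 673, 521 and 514 with the lower combination, and 578, 634 and 516 with the higher combination. The highest DMSO array was at 252 and the lowest drug array at 507. Log2 fold changes ran from 1.53 ± 0.21 with 30 nM GSK212 to 1.99 ± 0.21 with 1 µM GSK436, with adjusted p from 1.61e-09 to 1.63e-06. In the clone IFI35 gave 92.0 and 69.1 with DMSO, 87.8, 98.5 and 96.8 with 0.1 µM GSK436, and 86.7, 80.4 and 85.3 with 1 µM GSK436. DMSO and GSK436 overlapped. With GSK212 it gave 222, 233 and 209 with 10 nM GSK212, 300.3, 223 and 237 with 30 nM GSK212, 272, 303 and 235 with the lower combination, and 359, 294 and 393 with the higher combination. All 12 arrays, from 209 upward, were above the higher DMSO array of 92.0, and the log2 fold change reached 2.08 ± 0.21, adjusted p = 6.41e-09 with the higher combination. Under centring IFI35 kept 8 of its 10 calls and lost those of the parental higher combination and of 10 nM GSK212 in the clone.

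IFI6, a mitochondrial and endoplasmic reticulum protein with antiviral activity, was called in 1 parental group and in 4 groups of the clone. Parental signals were 98.2, 98.2 and 153 with DMSO, 267 and 179.6 with 0.1 µM GSK436, 196 and 180.1 with 1 µM GSK436, 351, 194 and 289.7 with 10 nM GSK212, 233 and 183 with 30 nM GSK212, 186, 265 and 239 with the lower combination, and 298, 233 and 167 with the higher combination. Each drug array was above the DMSO arrays, but only 10 nM GSK212 passed the fold threshold and the test (1.23 ± 0.27, adjusted p = 0.000931). The clone gave 111 and 73.6 with DMSO, 136, 87.3 and 75.4 with 0.1 µM GSK436, 89.9, 98.7 and 101 with 1 µM GSK436, 263, 134 and 182 with 10 nM GSK212, 167, 239 and 241 with 30 nM GSK212, 215, 177 and 243 with the lower combination, and 261, 209 and 248 with the higher combination. All 4 groups with GSK212 were called, from 1.02 ± 0.31, adjusted p = 0.0476 to 1.37 ± 0.31, adjusted p = 0.00186. IFI27, a small membrane-spanning protein, was called with 1 µM GSK436 (2.33 ± 0.83) and the lower combination (2.19 ± 0.74) in parental cells, from a level above the pooled median on 2 of 38 arrays. Those 2 arrays belong to the 2 called groups, so these calls too support nothing on their own. IFI44L was called in 0 comparisons on the scale as deposited, and its signal was above the pooled median on 4 arrays.

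IFI44, a cytoplasmic protein encoded beside IFI44L, was called lower in the clone. In the clone its signals were 419 and 621 with DMSO, 541, 467 and 267 with 0.1 µM GSK436, 591, 548 and 636 with 1 µM GSK436, 283, 301 and 224 with 10 nM GSK212, 172, 251 and 284 with 30 nM GSK212, 267, 264 and 254 with the lower combination, and 274, 199 and 171 with the higher combination. All 12 arrays with GSK212 were below both DMSO arrays. The calls were made with 30 nM GSK212 (-1.14 ± 0.28, adjusted p = 0.00875) and with the higher combination (-1.27 ± 0.28, adjusted p = 0.002). In parental cells IFI44 gave 545, 586 and 331 with DMSO, 309 and 367 with 0.1 µM GSK436, 322 and 197 with 1 µM GSK436, 313, 379.7 and 564 with 10 nM GSK212, 544 and 465 with 30 nM GSK212, 428, 527 and 539 with the lower combination, and 269.7, 322 and 254 with the higher combination. These overlapped for most groups, and 0 were called on the scale as deposited. Another probe set of IFI44 gave a log2 fold change of 0.215 for 30 nM GSK212 in the clone, against -1.14 for the one used. With the mean of a gene's probe sets, 0 members were called lower in the clone with 30 nM GSK212 or the higher combination. With the actin ratio as covariate, 0 were called lower with 30 nM GSK212 and 1 with the higher combination.

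GBP1, an interferon-induced guanylate-binding protein that acts on membranes of intracellular pathogens, had parental signals of 108, 105 and 102 with DMSO, 232 and 325 with 0.1 µM GSK436, 246 and 311 with 1 µM GSK436, and 352, 358 and 359 with 10 nM GSK212. It gave 281 and 305 with 30 nM GSK212, 302, 242 and 225 with the lower combination, and 259.6, 299 and 233 with the higher combination. The DMSO arrays lay within 102 to 108, and the lowest drug array was at 225. Log2 fold changes were 1.26 to 1.74, with the highest for 10 nM GSK212 (1.74 ± 0.32, adjusted p = 9.76e-05). The dimmest of 3 other GBP1 probe sets gave -0.766 with the lower combination, where the rest gave 2.04 and 1.2. In the clone GBP1 gave 47.3 and 28.6 with DMSO, 25.4, 36.2 and 6.48 with 0.1 µM GSK436, and 45.1, 29.0 and 36.0 with 1 µM GSK436, and 1 array was as low as 6.48. Neither dose of GSK436 was called there. With GSK212 it gave 80.7, 96.0 and 137 with 10 nM GSK212, 235, 125 and 152 with 30 nM GSK212, 140.5, 138 and 153 with the lower combination, and 197, 211 and 165 with the higher combination. These arrays were all above both DMSO arrays, with log2 fold changes from 1.40 ± 0.36, adjusted p = 0.0166 to 2.28 ± 0.36, adjusted p = 2.21e-05. GBP2, the neighbouring gene on chromosome 1, was called only in the clone and only with the combinations. Its clone signals were 24.0 and 1.07 with DMSO, 4.05, 25.6 and 14.3 with 0.1 µM GSK436, 10.8, 16.6 and 11.0 with 1 µM GSK436, 44.8, 22.9 and 22.5 with 10 nM GSK212, 51.0, 26.6 and 33.0 with 30 nM GSK212, 71.0, 56.9 and 63.9 with the lower combination, and 32.7, 93.6 and 54.0 with the higher combination. The log2 fold changes were 2.71 ± 0.62, adjusted p = 0.0034 and 2.51 ± 0.62, adjusted p = 0.00504, from DMSO arrays of 24.0 and 1.07. Its parental signals were 38.5, 22.9 and 37.9 with DMSO, 54.8 and 97.99 with 0.1 µM GSK436, 94.6 and 53.3 with 1 µM GSK436, 116, 83.2 and 60.7 with 10 nM GSK212, 44.8 and 89.1 with 30 nM GSK212, 76.5, 40.4 and 65.7 with the lower combination, and 33.0, 72.8 and 57.7 with the higher combination. All but 1 of the 15 drug arrays lay above the DMSO arrays. The changes of GBP2 were 0.64 to 1.30, with 0 called, and the difference between the lines was not called for either combination (adjusted p = 0.508 and 0.353).

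MX1, a GTPase that traps viral particles, had parental signals of 40.3, 17.6 and 22.8 with DMSO, 113 and 65.1 with 0.1 µM GSK436, 128 and 121 with 1 µM GSK436, 175, 92.4 and 100.2 with 10 nM GSK212, 66.2 and 80.2 with 30 nM GSK212, 68.1, 72.8 and 93.5 with the lower combination, and 119.8, 140.1 and 121 with the higher combination. Each drug array was above the DMSO arrays, the nearest being 65.1 against 40.3. Log2 fold changes were 1.42 to 2.20, with the highest for the higher combination (2.20 ± 0.35, adjusted p = 1.01e-05). The clone gave 59.5 and 21.2 with DMSO, 27.7, 25.6 and 54.9 with 0.1 µM GSK436, 58.2, 29.8 and 45.0 with 1 µM GSK436, 71.2, 107 and 97.5 with 10 nM GSK212, 109, 122 and 146 with 30 nM GSK212, 125, 118 and 137 with the lower combination, and 119, 171 and 133 with the higher combination. With 10 nM GSK212 the change of 1.27 ± 0.39 was not called (adjusted p = 0.0556), and the 3 other groups with GSK212 were called, up to 1.88 ± 0.39, adjusted p = 0.000936. MX2, the adjacent gene on chromosome 21, was called in 0 comparisons.

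The OAS enzymes make the second messenger that activates RNase L, and the 3 genes OAS1, OAS3 and OAS2 lie side by side on chromosome 12. OAS1 gave parental signals of 30.4, 35.3 and 43.5 with DMSO, 77.5 and 88.8 with 0.1 µM GSK436, 60.8 and 60.2 with 1 µM GSK436, 51.5, 76.0 and 97.9 with 10 nM GSK212, 46.1 and 88.0 with 30 nM GSK212, 86.2, 81.4 and 54.1 with the lower combination, and 70.8, 80.0 and 81.2 with the higher combination. All 15 drug arrays exceeded the 3 DMSO arrays, but only the higher combination was called (1.04 ± 0.39, adjusted p = 0.0447). Clone signals were 11.6 and 8.61 with DMSO, 43.6, 40.7 and 12.8 with 0.1 µM GSK436, 33.4, 22.8 and 28.2 with 1 µM GSK436, 33.1, 47.4 and 55.6 with 10 nM GSK212, 49.2, 51.5 and 26.0 with 30 nM GSK212, 57.3, 39.9 and 42.1 with the lower combination, and 35.9, 63.6 and 37.9 with the higher combination. Both DMSO arrays were far below the pooled median, and all 4 groups with GSK212 were called, with log2 fold changes of 1.76 to 1.92 and adjusted p from 0.00323 to 0.00915. A second OAS1 probe set gave changes of -0.528 and -0.216 for 10 and 30 nM GSK212, and of 0.36 and 0.31 for the lower and higher combination. OAS2 was called in parental cells with 0.1 µM GSK436 (1.71 ± 0.51, adjusted p = 0.0117), 10 nM GSK212 and 30 nM GSK212. Of its other probe sets, 1 gave -0.016 and -0.054 for the latter 2 groups, and another gave 1.62 and 1.59. OAS3 and OASL were called in 0 comparisons on the scale as deposited.

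The IFITM proteins, which block entry of viruses at membranes, are encoded by a cluster on chromosome 11. IFITM1 had parental signals of 36.4, 23.4 and 52.8 with DMSO, 238 and 148 with 0.1 µM GSK436, 111 and 140.0 with 1 µM GSK436, 219.8, 198 and 202 with 10 nM GSK212, 136 and 217 with 30 nM GSK212, 160.4, 136 and 126 with the lower combination, and 136, 64.9 and 69.4 with the higher combination. Drug arrays began at 64.9 and DMSO arrays ended at 52.8. The log2 fold change was 2.44 ± 0.40, adjusted p = 1.75e-05 with 10 nM GSK212, and it was smaller with the higher combination (1.19 ± 0.40, adjusted p = 0.0245). The clone gave 29.7 and 43.5 with DMSO, 14.4, 47.9 and 94.2 with 0.1 µM GSK436, 41.4, 44.3 and 48.8 with 1 µM GSK436, 82.6, 82.1 and 67.2 with 10 nM GSK212, 146, 63.4 and 70.2 with 30 nM GSK212, 145, 121 and 110.2 with the lower combination, and 87.3, 94.1 and 88.5 with the higher combination. All 12 arrays with GSK212 were above both DMSO arrays, but only the lower combination was called (1.72 ± 0.45, adjusted p = 0.0116). IFITM2 and IFITM3 were among the brightest members. IFITM2 gave parental signals of 1023, 980.0 and 1383 with DMSO, 2392 and 2261 with 0.1 µM GSK436, 2622 and 3263 with 1 µM GSK436, 2924, 2456 and 2335 with 10 nM GSK212, 2175 and 1663 with 30 nM GSK212, 1613, 1972 and 1939 with the lower combination, and 2454, 2102 and 2639 with the higher combination. Every drug array was above the DMSO arrays, and 4 of 6 groups were called, the largest with 1 µM GSK436 (1.39 ± 0.24, adjusted p = 4.6e-05). In the clone IFITM2 gave 2266 and 1533 with DMSO, 1655, 1752 and 2639 with 0.1 µM GSK436, 1511, 1876 and 1671 with 1 µM GSK436, 1602, 1881 and 2299.8 with 10 nM GSK212, 3172, 2130.5 and 2499.6 with 30 nM GSK212, 1735, 3589 and 2444 with the lower combination, and 3601, 2359 and 2798 with the higher combination, which overlapped DMSO in every group but 1, and 0 were called. IFITM3 was called in parental cells with 0.1 µM GSK436 (1.17 ± 0.30, adjusted p = 0.00394), 1 µM GSK436 and the higher combination, and in 0 resistant groups. Probe sets of IFITM2 and IFITM3 may share signal, as the genes are near-identical copies in part, so their values are uncertain as values of single genes.

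The IFIT proteins bind foreign RNA and stop its translation. IFIT1 was called in parental cells with 10 nM GSK212, 30 nM GSK212 and the lower combination, and so was IFIT2, while 0 of the 4 IFIT genes were called with GSK436 alone or with the higher combination. IFIT1 signals were 27.4, 36.6 and 5.76 with DMSO, 79.2 and 61.0 with 0.1 µM GSK436, 9.02 and 45.8 with 1 µM GSK436, 57.1, 48.8 and 193 with 10 nM GSK212, 154 and 129 with 30 nM GSK212, 122, 155 and 141 with the lower combination, and 10.2, 59.9 and 2.07 with the higher combination. The 3 arrays of the lower combination were at 122 or above, and those of the higher combination spread from 2.07 to 59.9 and overlapped DMSO. The log2 fold change was 2.71 ± 0.71, adjusted p = 0.00517 with the lower and -0.45 ± 0.71, adjusted p = 0.671 with the higher combination. The direct comparison of the higher combination with 10 nM GSK212 gave -2.42 ± 0.71, adjusted p = 0.139, which was not called. In the clone IFIT1 gave 48.9 and 56.9 with DMSO, 46.0, 78.2 and 3.53 with 0.1 µM GSK436, 42.5, 60.7 and 66.5 with 1 µM GSK436, 119, 186 and 115 with 10 nM GSK212, 154, 149 and 232 with 30 nM GSK212, 162, 149 and 198 with the lower combination, and 117, 135 and 98.4 with the higher combination. All 12 arrays with GSK212 exceeded the DMSO arrays, but the changes of 1.09 to 1.68 were not called (adjusted p from 0.242 to 0.463). IFIT2 had log2 fold changes of 1.24 ± 0.34, 1.57 ± 0.38 and 1.44 ± 0.34 in its 3 called groups, and its other probe set gave 0.588, -0.1 and 0.497. IFIT3 and IFIT5 were called in 0 comparisons on the scale as deposited.

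SAMD9 and SAMD9L, neighbours on chromosome 7 that restrict poxviruses and protein synthesis, both responded to GSK212. SAMD9 gave parental signals of 294, 255 and 277 with DMSO, 386 and 493 with 0.1 µM GSK436, 412 and 303 with 1 µM GSK436, 706, 681 and 737 with 10 nM GSK212, 698 and 689.7 with 30 nM GSK212, 544, 545 and 670.0 with the lower combination, and 423, 478 and 443 with the higher combination. With GSK212 alone all 5 arrays were at 681 or above, and with 1 µM GSK436 they were 412 and 303 against DMSO arrays up to 294. It was called with 10 nM GSK212 (1.36 ± 0.20, adjusted p = 3.67e-06), 30 nM GSK212 (1.33 ± 0.23, adjusted p = 4.32e-05) and the lower combination (1.08 ± 0.20, adjusted p = 0.000124), and not with GSK436 alone or the higher combination. Clone signals were 179 and 190.2 with DMSO, 182, 199.7 and 129 with 0.1 µM GSK436, 227, 198 and 153 with 1 µM GSK436, 458, 374 and 353 with 10 nM GSK212, 233, 460.2 and 366 with 30 nM GSK212, 424, 282 and 373 with the lower combination, and 391, 362 and 361 with the higher combination. All 12 arrays with GSK212 were above DMSO, and 10 nM GSK212 was called (1.08 ± 0.23, adjusted p = 0.00234). SAMD9L gave parental signals of 79.5, 116 and 51.5 with DMSO, 175 and 163 with 0.1 µM GSK436, 147 and 149.9 with 1 µM GSK436, 164, 221 and 255 with 10 nM GSK212, 203 and 242 with 30 nM GSK212, 242, 206 and 224 with the lower combination, and 203, 183 and 191 with the higher combination. All 15 drug arrays were above DMSO, and 5 of 6 groups were called, the exception being 1 µM GSK436 at 0.90 ± 0.27. In the clone SAMD9L gave 45.9 and 37.6 with DMSO, 46.4, 46.5 and 52.5 with 0.1 µM GSK436, 48.2, 59.5 and 67.1 with 1 µM GSK436, 82.1, 79.4 and 55.8 with 10 nM GSK212, 97.9, 83.2 and 91.0 with 30 nM GSK212, 102, 93.0 and 122 with the lower combination, and 122, 133 and 140.0 with the higher combination. The 30 nM GSK212 group and both combinations were called there, up to 1.60 ± 0.27, adjusted p = 6.26e-05.

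Of the RNA sensors, RIGI (DDX58), which detects RNA with a triphosphate end, was called in parental cells with 1 µM GSK436 (1.16 ± 0.42, adjusted p = 0.0336) and the higher combination. IFIH1, the sensor MDA5 of long double-stranded RNA, was called with 0.1 µM GSK436 (2.18 ± 0.81, adjusted p = 0.0426) and 10 nM GSK212. Other, dim IFIH1 probe sets gave -0.664 and 0.053 with 0.1 µM GSK436. DDX60, a helicase that works with these sensors, was called with both combinations (1.31 ± 0.42 and 1.11 ± 0.42). Neither sensor nor DDX60 was called in the clone. TRIM22, a ubiquitin ligase with antiviral activity, was called in parental cells with 30 nM GSK212 (1.70 ± 0.48, adjusted p = 0.0116) and the lower combination.

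TNFSF10, the death ligand TRAIL, was called in 4 parental groups but was dim: it was above the pooled median on 3 of 38 arrays. These 3 belong to parental groups in which it was called, so it passed the filter on low values only through them, and its calls support nothing on their own. Its parental signals were 10.3, 1.12 and 1.24 with DMSO, 43.9 and 16.5 with 0.1 µM GSK436, 26.3 and 55.9 with 1 µM GSK436, 23.0, 32.1 and 24.6 with 10 nM GSK212, 14.6 and 27.1 with 30 nM GSK212, 26.9, 2.42 and 28.8 with the lower combination, and 59.8, 23.9 and 34.5 with the higher combination. All but 1 of the 15 drug arrays were above the DMSO arrays, and the largest log2 fold change was 2.80 ± 0.88, adjusted p = 0.0154. In the clone TNFSF10 gave 14.3 and 8.07 with DMSO, 1.20, 5.20 and 17.1 with 0.1 µM GSK436, 12.4, 11.97 and 2.83 with 1 µM GSK436, 27.8, 15.3 and 29.7 with 10 nM GSK212, 25.6, 4.47 and 12.4 with 30 nM GSK212, 1.81, 15.7 and 18.8 with the lower combination, and 8.84, 1.60 and 30.6 with the higher combination, which overlapped DMSO in most groups. Another TNFSF10 probe set gave -0.033 with 10 nM GSK212 in parental cells. LGALS3BP, a secreted glycoprotein that binds galectins, gave parental signals of 1394, 1323 and 2379.6 with DMSO, 3944 and 2815 with 0.1 µM GSK436, 4436 and 5762 with 1 µM GSK436, 3894, 2705 and 1899 with 10 nM GSK212, 1691 and 1854 with 30 nM GSK212, 2220.3, 1621 and 1921 with the lower combination, and 4230.4, 3515 and 3992 with the higher combination. It was called with 0.1 µM GSK436 (1.02 ± 0.29, adjusted p = 0.00806), 1 µM GSK436 (1.63 ± 0.29, adjusted p = 5.79e-05) and the higher combination (1.25 ± 0.26, adjusted p = 0.00033). The groups with GSK212 alone and the lower combination overlapped DMSO. In the clone LGALS3BP gave 1489 and 780.1 with DMSO, 1126, 1494 and 2130.3 with 0.1 µM GSK436, 1387, 1264 and 1081 with 1 µM GSK436, 1244, 1423 and 1553 with 10 nM GSK212, 2409.8, 1531 and 1175 with 30 nM GSK212, 1557, 1630.5 and 2001 with the lower combination, and 1986, 2076 and 2296 with the higher combination. The higher combination lay above both DMSO arrays, as did the lower, but 0 groups were called.

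PLSCR1, a phospholipid scramblase of the plasma membrane with antiviral activity, was the 1 member called lower in parental cells on the scale as deposited. Its signals were 557, 676 and 384 with DMSO, 189 and 222 with 0.1 µM GSK436, 199 and 220.1 with 1 µM GSK436, 193, 217 and 484 with 10 nM GSK212, 371 and 254 with 30 nM GSK212, 335, 432 and 457 with the lower combination, and 207, 212 and 163 with the higher combination. The 7 arrays with 0.1 or 1 µM GSK436 alone or with the higher combination all lay between 163 and 222, below the DMSO arrays of 384 to 676. The log2 fold changes were -1.35 ± 0.35, adjusted p = 0.00486, -1.31 ± 0.35, adjusted p = 0.00508 and -1.43 ± 0.32, adjusted p = 0.000774. Another, dim PLSCR1 probe set gave 1.47, 1.36 and 0.209 in these 3 groups. With the actin ratio as covariate, 0 members were called lower in these 3 groups, so the calls of PLSCR1 were lost. They were also lost with the mean of a gene's probe sets. In the clone PLSCR1 gave 637 and 1305 with DMSO, 995, 672 and 396 with 0.1 µM GSK436, 907, 1009 and 1309 with 1 µM GSK436, 534, 715 and 473 with 10 nM GSK212, 367, 691 and 866 with 30 nM GSK212, 563, 688 and 642 with the lower combination, and 839, 658 and 609.8 with the higher combination. The DMSO arrays were far apart, at 637 and 1305, and 0 groups were called.

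Of the 45 members tested, 12 were called in both lines, 14 only in parental cells, 2 (GBP2 and IFI44) only in the clone, and 17 in none of the 12 comparisons with DMSO. These are 26.7%, 31.1%, 4.44% and 37.8% of the members, and over all 17986 genes the same shares were 6.21%, 25.7%, 1.8% and 66.3%. The share called only in parental cells was near that of all genes, and these 14 members include TNFSF10 and IFI27, whose calls support nothing on their own. The 17 called in none were CMPK2, DTX3L, EPSTI1, IFI44L, IFIT3, IFIT5, IRF1, ISG20, MX2, OAS3, OASL, PARP14, PARP9, RSAD2, SP110, USP18 and XAF1. They include the PARP9 and DTX3L pair, which share a promoter region and act as a complex on histones and viral proteins. They also include RSAD2 (viperin) and CMPK2, adjacent genes on chromosome 2 whose products yield an antiviral nucleotide. Some of the 17 were dim and others were not: RSAD2 and IFI44L were above the pooled median on 4 arrays each, and IRF1 and ISG20 on all 38.

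In DMSO, before any drug was added, 4 members were called lower in the clone than in parental cells and 0 higher (all genes, 2.17% lower and 1.48% higher). ISG20, an RNA exonuclease, had DMSO signals of 256, 181 and 279 in parental cells and 113 and 73.2 in the clone, without overlap (-1.34 ± 0.27, adjusted p = 0.00102). IFI35 differed by -1.20 ± 0.21, adjusted p = 0.000158, from 150.0, 173 and 252 to 92.0 and 69.1. GBP1 differed by -1.44 ± 0.36, adjusted p = 0.00998, from 108, 105 and 102 to 47.3 and 28.6. OAS1 differed by -1.60 ± 0.44, adjusted p = 0.0215, from 30.4, 35.3 and 43.5 to 11.6 and 8.61, and its second probe set gave 0.324. IRF9 was also lower on both clone arrays, but its difference of -0.79 ± 0.29 was not called (adjusted p = 0.131). Over all genes, 19.9% lay wholly lower in the clone than in parental cells in DMSO, and 13% wholly higher. Under centring only ISG20 was called lower, and IFITM2 was called higher in the clone. Without replicate 2 of the resistant DMSO group, 1 member was called in place of 4.

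The difference between the lines in the response to GSK436 was tested as an interaction. At 0.1 µM, 6 members responded less in the clone and 0 more (all genes, 2.29% lower and 1.91% higher). The 6 were IRF9 (-1.49 ± 0.41, adjusted p = 0.0286), IFITM1 (-2.13 ± 0.63, adjusted p = 0.0429), ISG15 (-1.31 ± 0.28, adjusted p = 0.00286), HERC6 (-1.47 ± 0.36, adjusted p = 0.0115), IFI35 (-1.74 ± 0.30, adjusted p = 0.000288) and GBP1 (-2.24 ± 0.51, adjusted p = 0.00579). At 1 µM, 8 members were called lower and 1 higher (5.53% and 5.48% of all genes). IRF9 differed by -1.86 ± 0.41, adjusted p = 0.00255, IFI35 by -1.91 ± 0.30, adjusted p = 4.73e-05 and ISG15 by -1.93 ± 0.28, adjusted p = 1.54e-05. MX1 differed by -1.93 ± 0.55, adjusted p = 0.0181 and HERC6 by -1.76 ± 0.36, adjusted p = 0.00129. IFITM2 and IFITM3 differed by -1.54 ± 0.34 and -1.44 ± 0.42, and LGALS3BP by -1.43 ± 0.41. PLSCR1, which fell in parental cells, differed by 1.53 ± 0.50, adjusted p = 0.0385 in the other direction. Under centring IFI35 was left at 0.1 µM, and HERC6, IFI35, IRF9 and ISG15 at 1 µM. Without replicate 1 of the resistant DMSO group the counts were 2 and 4 in place of 6 and 9. Without parental replicate 2 of 0.1 µM GSK436 the first was 3, and without replicate 2 of parental DMSO or replicate 3 of parental 1 µM GSK436 the second was 5.

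**Figure D4:**
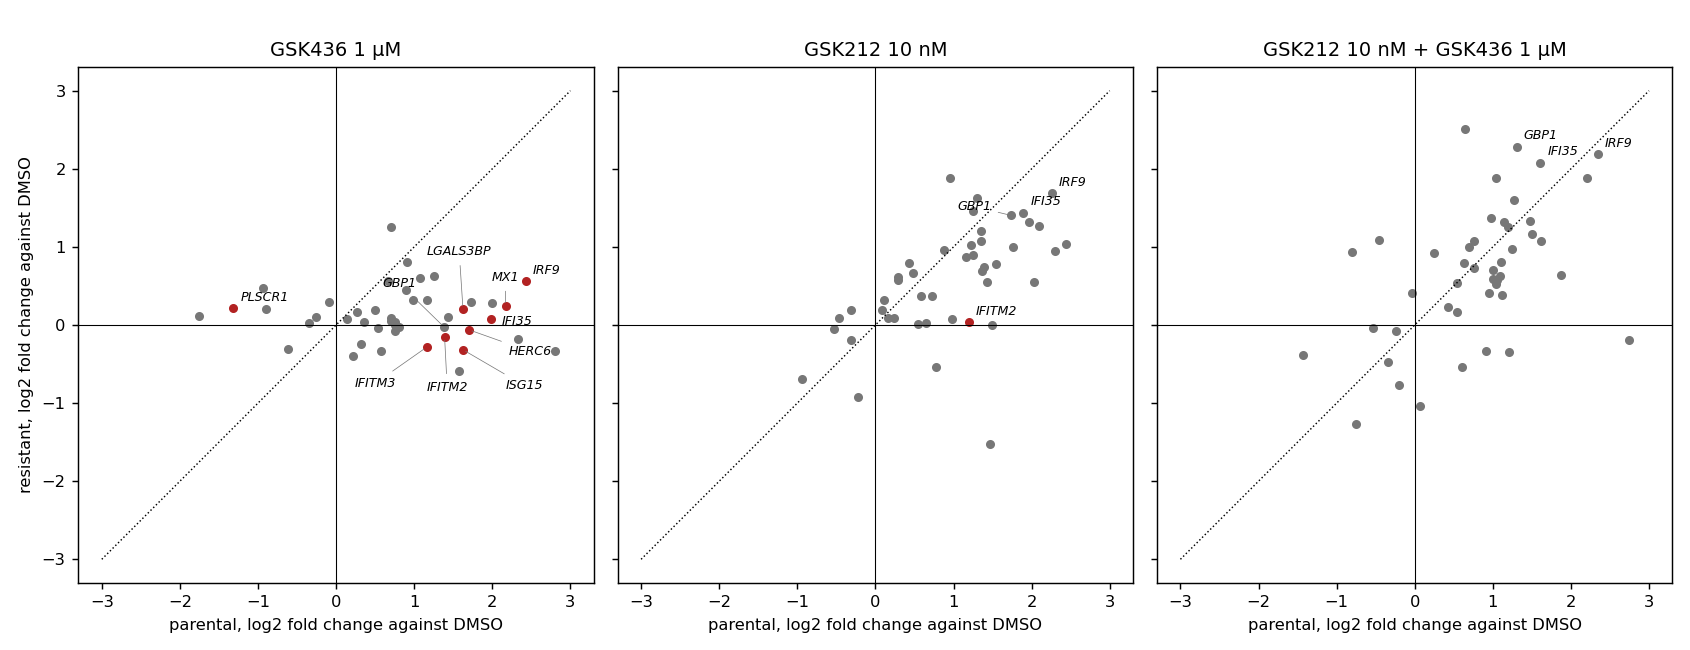
Log2 fold change against DMSO in the resistant clone (vertical) and in parental cells (horizontal) for 1 µM GSK436, 10 nM GSK212 and the higher combination; each point is 1 of the 45 members, red points are called in the test of the difference between the lines, and the dotted line marks equal changes. With 1 µM GSK436 the members spread along the parental axis, and in the clone all but OAS1 (1.26, not called) lie between -0.59 and 0.81, while with GSK212 most points lie above 0 on both axes.

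With GSK212 the lines differed in 1 member or none by the same test. IFITM2 was called for 10 nM GSK212 (-1.16 ± 0.32, adjusted p = 0.0469; all genes, 0.979% lower and 0.928% higher), and this call was lost without any of 7 single arrays of the 11 that enter it. For 30 nM GSK212 and for the lower and higher combinations 0 members were called by limma (0.801%, 0.79% and 1.06% of all genes in either direction). At an unadjusted p under 0.05 there were 0 higher and 2 lower, 1 higher and 2 lower, and 3 higher and 1 lower. These tests do not show that the lines responded alike. For IRF9 the difference at 30 nM GSK212 was -0.29, with a 95% interval from -1.13 to 0.56. For the higher combination it was -0.15, with a 95% interval from -0.95 to 0.65. For IFI35 the higher combination gave 0.48, with a 95% interval from -0.10 to 1.05.

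The drugs were also compared with each other within a line. In parental cells, 1 µM GSK436 and 10 nM GSK212 differed in 0 members by limma (all genes, 0.817% called in either direction), with 2 members higher and 6 lower at an unadjusted p under 0.05. IRF9 differed by 0.17, with a 95% interval from -0.43 to 0.76. SAMD9 was lower with GSK436 by -0.99 ± 0.23, adjusted p = 0.017, just short of the fold threshold. The higher combination and 10 nM GSK212 also differed in 0 members (0.345% of all genes), with 2 higher and 6 lower at an unadjusted p under 0.05. In the clone, 1 µM GSK436 gave lower values than 10 nM GSK212 for 5 members and higher values for 1 (all genes, 1.8% lower and 0.484% higher). IFI35 differed by -1.37 ± 0.19, adjusted p = 8.41e-06, ISG15 by -1.32 ± 0.18, adjusted p = 5.02e-06, GBP1 by -1.43 ± 0.32, adjusted p = 0.00542, IRF9 by -1.12 ± 0.26, adjusted p = 0.00752 and SAMD9 by -1.04 ± 0.20, adjusted p = 0.00108. IFI44 was the member that was higher with GSK436 (1.14 ± 0.25, adjusted p = 0.00474). The higher combination exceeded 1 µM GSK436 in 9 members and was below it in IFI44 (4.09% and 1.46% of all genes). The 9 were GBP1, GBP2, HERC6, IFI35, IFI6, IRF9, ISG15, MX1 and SAMD9L, with IFI35 at 2.01 ± 0.19, adjusted p = 1.46e-09 and IRF9 at 1.63 ± 0.26, adjusted p = 2.97e-05. The higher combination and 10 nM GSK212 differed in 0 members by limma (0.562% of all genes), with 7 higher and 0 lower at an unadjusted p under 0.05. For IRF9 this difference was 0.51, with a 95% interval from -0.03 to 1.04.

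Other genes of the interferon pathway were counted from separate lists. Beside their counts stand the shares over all genes, which were 6.51% to 11.8% higher and 3.44% to 7.71% lower in the parental drug groups, and 2.17% to 4.88% higher and 0.617% to 1.71% lower in the clone with GSK212. Of 26 further interferon-stimulated genes tested, 4 to 9 were called higher and 1 or 2 lower in the parental drug groups. In the clone 0 were called with GSK436 alone, and 4 to 6 were called higher and 0 or 1 lower with GSK212. Under centring these ranges became 1 to 5 higher and 2 to 5 lower in parental cells, and 0 to 2 higher and 0 or 1 lower in the clone. SLFN5, a Schlafen family protein that restricts viruses, changed by 1.94 to 2.73 in parental cells and by 1.32 to 2.33 in the clone with GSK212. PNPT1, a mitochondrial RNA exonuclease, was called lower in all 6 parental groups (-2.29 to -1.21) and in the clone with 30 nM GSK212 (-1.10 ± 0.33). Of 18 genes of nucleic acid sensing, 1 to 4 were called higher and 1 or 2 lower in parental cells, and 1 or 2 higher and 1 to 5 lower under centring. AIM2, a sensor of cytosolic DNA, changed by 2.40 to 3.10 in parental cells and by 1.30 to 1.92 in the clone with GSK212. STING1 of the same list was called lower in parental cells with GSK212 alone and with both combinations (-2.238 to -1.324). TBK1 was called lower there with both doses of GSK436 and with the higher combination (-1.351 to -1.129). In the same list, MAVS was called higher in parental cells with both doses of GSK436, 10 nM GSK212 and both combinations (1.365 to 1.952). It was also called higher in the clone with both combinations (1.11 and 1.241). DHX58 (3.057 with 0.1 µM GSK436) and CGAS (2.295 with 1 µM GSK436) were called higher in parental cells. In the clone with GSK212, 1 to 3 genes of this list were called higher and 0 lower. Under centring these counts were 0 to 2 and 0 or 1. Of 18 receptor and signalling genes, 1 was called higher in each parental group (IL10RB, a receptor chain shared with interleukin 10), and 0 to 3 were called lower. IFNGR2, a chain of the interferon gamma receptor, was called lower in 5 of the 6, and its changes were -1.35 to -0.98. SOCS3, an inhibitor of this signalling (-2.41 ± 0.76), and PTPN11, a phosphatase (-1.14 ± 0.23), were called lower with 0.1 µM GSK436. Under centring 0 or 1 of the 18 was higher and 1 to 6 were lower. Of 17 genes led by interferon gamma, 1 to 4 were called higher and 1 or 2 lower in parental cells, and 0 to 2 higher and 1 to 4 lower under centring. In the clone with GSK212, 1 to 3 were called higher and 1 lower, and 1 or 2 higher and 1 lower under centring. NLRC5 was called higher in all 6 parental groups (1.156 to 1.455) and in the clone with GSK212 (1.863 to 2.078). Under centring its parental calls were lost and its clone calls were kept. CD274, the checkpoint ligand PD-L1, was called lower in all 6 parental groups (-1.89 to -1.05) and in the clone with GSK212 (-3.12 to -2.60). In DMSO it was higher in the clone, by 3.25 ± 0.30.

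Genes of the interferons themselves were also counted. Of 15 ligands tested from 21 listed, 2 were called higher with each dose of GSK436 in parental cells, 1 with the higher combination, 0 in the other parental groups and 0 in the clone (all genes called higher, 11.5%, 11.8% and 11.2% in the first 3 groups). All of these calls were lost under quantile normalization and under centring. IFNB1, the type I interferon that most cells make first, ranged from 1.45 to 66.3 over the 38 arrays. Markers of leukocytes, the other cells a culture could hold, were listed as 11 genes, of which 8 were tested. Up to 3 were called higher in parental groups (CSF1R, GZMB and PTPRC) and 0 in the clone. The count of 3 was with 1 µM GSK436 (all genes, 11.8% higher), and other parental groups had 0 to 2 (all genes, 6.51% to 11.5%). Under quantile normalization and under centring, the group with 1 µM GSK436 had 0 higher and 1 lower. Centring gave 0 or 1 higher and 0 or 1 lower over the parental groups. The summed signal of the leukocyte markers was 156 to 258 on parental DMSO arrays and 223 to 582 on parental drug arrays, and 109 to 168 and 135 to 452 in the clone. PTPRC (CD45), which all leukocytes carry, reached at most 53.0, CD14 was above the pooled median on 1 array and NKG7 on 0. CD79A was above it on 35 arrays (at most 173), CSF1R on 16 (at most 141), CD3E on 15 and ITGAM on 14. PTPRC, CD3D, GZMB and LYZ were above it on 3 to 12. The part of these markers in the result was not tested.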

How the data were processed

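The deposited intensity values were linear signals of 38 Affymetrix arrays with 54675 probe sets. The authors computed them with MAS5, per the submitters' processing notes, and their trimmed means of 149.84 to 149.96 show 1 scaling target. RNA was extracted with Trizol, per the labels' protocols.

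Probe sets were named from GEO's platform annotation: 41097 named 1 gene, 1801 several and 11777 none. The pseudocount of 2.8 was the 10th percentile of all values. The model on log2(signal + 2.8) had 14 group means and 24 residual degrees of freedom, with eBayes with trend (limma 3.58.1, R 4.3.3). Genes above the pooled median of 34.88 on 2 or more arrays were kept, and p-values were adjusted by Benjamini-Hochberg over 17986 genes. A call needed an adjusted p under 0.05 and a log2 fold change of at least 1 in size. Groups came from the labels. Comparisons were each drug with DMSO of its line, the lines in DMSO, the interaction of line and drug, and drugs within a line. Intervals are at 95% from the same fit, and the number of arrays limits precision.

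On simulated data made like the comparison of parental 10 nM GSK212 with DMSO (17986 genes), 42% of changes of 1.5 and 70% of 2.5 (log2) were recovered, with 1 false call. Alternatives were quantile normalization, centring on the array median, a pseudocount at the 25th percentile, no filter, a filter at the 75th percentile, the mean of a gene's probe sets, a replicate block, the actin ratio as covariate, array weights, and leaving out each array.

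Values on every array are given for IRF9, IRF7, IRF1 and the 14 other members called most often, and for members of interest in the line comparisons. The other members are given by ranges and counts. PLSCR1, IFI44, GBP2 and LGALS3BP were added to those with values on every array after their values were seen. From the other lists only some of the called genes are named, and they are not always those with the largest changes. The members and lists were chosen with earlier results of these data known.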

Additional observations from a re-analysis of the deposited data

Results flagged for a closer look

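Each result here had a response to a drug that differed between the resistant clone and parental cells by limma's interaction test. Values are log2 differences, the change in the clone less the change in parental cells. With 0.1 µM GSK436 they were -1.49 for IRF9, -2.13 for IFITM1, -1.31 for ISG15, -1.47 for HERC6, -1.74 for IFI35 and -2.24 for GBP1. With 1 µM GSK436 they were -1.86 for IRF9, -1.93 for MX1, -1.93 for ISG15, -1.76 for HERC6 and -1.91 for IFI35. At the same dose, IFITM2 had -1.54, IFITM3 had -1.44 and LGALS3BP had -1.43. PLSCR1 had 1.53, the only positive value among the 16 and the 1 member called lower in parental cells. With 10 nM GSK212, IFITM2 had -1.16. IFI35 at 0.1 µM, and IFI35, IRF9 and ISG15 at 1 µM, kept their calls in all alternatives and left-out arrays.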

How the results depend on the processing

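No called result changed direction under any alternative. IRF9 kept all 10 calls against DMSO. Of 169 calls of members over all comparisons, 117 were kept under quantile normalization, 65 under centring, 141 with the actin ratio as covariate, 127 with the mean of probe sets and 166 with the replicate block.

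Centring gave 7, 8, 9, 5, 5 and 8 called members in the 6 parental drug groups (0.1 and 1 µM GSK436, 10 and 30 nM GSK212, lower and higher combination), against 16, 15, 18, 14, 14 and 17. In the clone with GSK212 it gave 1, 5, 6 and 7 against 7, 9, 11 and 12. The lines in DMSO gave 2 against 4, the line differences for 0.1 and 1 µM GSK436 and 10 nM GSK212 gave 1, 4 and 0 against 6, 9 and 1, the parental higher combination against 10 nM GSK212 gave 1 against 0, and 1 µM GSK436 against 10 nM GSK212 in the clone gave 2 against 6. Quantile normalization gave 9 against 14 for parental 30 nM GSK212, 2 and 5 against 7 and 11 for 10 nM GSK212 and the lower combination in the clone, 1 against 4 for the lines in DMSO, and 3 against 6 for the drugs in the clone. The actin covariate gave 9 against 15 for parental 1 µM GSK436, 2 against 1 for the line difference at 10 nM GSK212, 1 against 0 at 30 nM and with the higher combination, and 1 against 0 for the parental higher combination against GSK212. The mean of probe sets gave 4 against 7 for 10 nM GSK212 in the clone, and 3 and 0 against 6 and 1 for the line differences at 0.1 µM GSK436 and 10 nM GSK212. With no filter the last was also 0. Array weights gave 1 against 0 for 0.1 µM GSK436 in the clone, 14, 14, 3 and 2 against 6, 9, 1 and 0 for the line differences at 0.1 and 1 µM GSK436, 10 nM GSK212 and the higher combination, and 1 against 0 for the parental higher combination against GSK212. The cause of these changes was not tested.

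Leaving out each array in turn gave 8 to 18, 9 to 18, 14 to 17, 7 to 13, 12 to 15 and 12 to 19 in the parental groups. In the clone it gave 0 with GSK436 alone and 4 to 8, 4 to 11, 5 to 12 and 6 to 13 with GSK212. The lines in DMSO gave 1 to 5, and the line differences 2 to 9, 4 to 12, 0 to 1, 0, 0 and 0 to 1, the last with 1 without parental DMSO replicate 3. Parental GSK436 against GSK212 gave 0 to 2 and the parental combination against GSK212 0 to 1. In the clone these gave 5 to 7 and 0, and the combination against GSK436 9 to 11.

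Replicate numbers did not pair the arrays (same-numbered deviations correlated at a median r of 0.00927), and with the replicate block the count for 0.1 µM GSK436 in parental cells was 17 against 16, with no count moved by over 1.5 times. Low signals limit BST2 (not tested), TNFSF10, IFI27, IFI44L and RSAD2, whose median signals of 4.01 to 22.8 lay below the pooled median of 34.88. The median signals of XAF1, EPSTI1 and CMPK2 were also below it, at 22.8, 25.8 and 29.2.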
